A study of Mus musculus with 6 samples.

Results

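The solute carriers (SLC genes) described here are the genes of the deposited table whose symbol has the form of an SLC member, with 4 of them left out by name (*Slc2a1*, *Slc6a4*, *Slc7a11* and *Slc40a1*) and without the mitochondrial SLC25 family. There were 211 such genes among 16300 genes in the table, in 41 families. The rule reads gene symbols and no measured value. All 211 had a mean of at least 10 normalized counts over the 6 libraries and were tested, and 48 of them had a control mean under 50.

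Solute carriers are membrane proteins that move amino acids, sugars, carboxylates, ions, metals, vitamins and nucleotide sugars across the plasma membrane or the membranes of organelles. Some run on the sodium gradient that the sodium pump maintains, some exchange a substrate for another, and some let a substrate run down its own gradient. Granulosa cells (GCs) line the follicle around the oocyte, and they feed it with amino acids and pyruvate, in part through gap junctions.

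RNA-seq was performed on 6 libraries of primary mouse GCs, 3 control and 3 treated with dihydrotestosterone (DHT), an androgen that aromatase does not turn into estrogen. All cells came from wild type C57BL/6J females of 8 to 9 weeks, were taken by needle puncture at estrus, grown for 48 h in medium with 10% serum and starved of serum for 4 h. The control libraries (replicates 1 to 3) then had medium alone and the DHT libraries (replicates 1 to 3) had 25 nM DHT for 24 h. Each library was a pool of the cells of 5 mice, so its values are means over mice and p-values measure the spread between pools at 1 dose and 1 time.

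The deposited value is a normalized count, the reads of a gene over a size factor that scales its library, and the reads per library ranged from 36111177 to 41928585. The labels name the extracted material as whole ovary, and GCs as the cell type. Of 9 GC markers, 8 were in the table and *Cyp19a1* was not analysed. *Hsd17b1* and *Cyp11a1* rose in DHT, and *Inha* and *Foxl2* fell. Markers of other ovarian cells were also read. The summed normalized counts of 4 endothelial markers were 150 to 179 in control and 141 to 199 in DHT, those of 5 leukocyte markers 504 to 592 and 409 to 647, and those of 5 markers of theca and stroma, of which *Star* is also made by GCs, 7555 to 9407 and 8529 to 9656. *Star* alone had means of 6964 normalized counts in control and 7876 in DHT, a log2 fold change of 0.19. The others in that sum, *Dcn*, *Pdgfra*, *Lum* and *Col1a1*, had log2 fold changes of -1.05, -0.38, -0.24 and -0.13, and none passed. The theca cell markers *Cyp17a1* and *Insl3* were not analysed. The sums of 5 markers of surface epithelium were 3865 to 4329 and 3072 to 3882. The 5 oocyte markers summed to 612, 262 and 194 in the control libraries and to 399, 39.3 and 414 in the DHT libraries. Among these markers of other cell types, *Csf1r*, a receptor of macrophages, passed the test and was lower in DHT, from 102 ± 11.4 to 64.9 ± 5.73 normalized counts (SD, n = 3). In pooled cells, fewer cells of a type and less RNA per cell cannot be told apart, and the part of other cell types in the results was not tested.

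Changes were measured on the log2(normalized count + 1) scale with limma over all 16292 genes with a mean of at least 10 and Benjamini-Hochberg adjustment over all of them. The added 1 draws the fold change of genes with few reads toward 0, and because logs are averaged, a fold change can differ from the ratio of the group means in either direction. A gene passed the test when its adjusted p was 0.05 or less, and it was called when its log2 fold change was also above 1 or below -1. Of the 211 solute carriers, 5 were called higher in DHT: *Slc2a6*, *Slc36a2*, *Slc16a12*, *Slc24a1* and *Slc38a5*. Over all genes tested, 0.908% were called higher and 0.399% lower, so 5 of 211 stands beside a small background. No solute carrier was called lower by limma, edgeR or DESeq2, and 1, *Slc5a1*, lay below -1 at an unadjusted limma p of at most 0.05, against 0.681% of all genes. The 5 calls became 3 without DHT replicate 1, where *Slc5a1* was called lower. Without the fold threshold, 29 carriers rose and 12 fell, 41 of 211 or 19.4%, against 11.2% of all genes (6.52% higher and 4.66% lower). The other 170 did not pass. The 29 became 13 without the intensity trend of limma and 19 without DHT replicate 3, and the 12 became 3 without the trend, 6 with the replicate block, 6 without control replicate 1, 4 without DHT replicate 2 and 5 without DHT replicate 3. Over all genes fewer passed too: 7.58% of the carriers and 4.93% of all genes passed without the trend, 13.7% and 6.08% with the block, 15.6% and 8.25% without control replicate 1, 11.4% and 5.95% without DHT replicate 2, and 11.4% and 5.71% without DHT replicate 3. The median log2 fold change of the 211 was 0.02, against -0.01 over all genes, and 27 of the 41 that passed moved by less than 0.5 in either direction on that scale.

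In all 41 passing carriers the 3 control libraries and the 3 DHT libraries did not overlap. The test that selected them favours such separation, so this is not separate support. Over the 211 members, the DHT libraries lay above every control library in 56 and below in 28, where 15.9% and 14.7% of all genes did so. In the plot of log2 fold changes by substrate class, the carriers that passed were spread over 8 of the 9 classes. Amino acid and amine carriers held 11 of the 29 that rose.

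**Figure D1:**
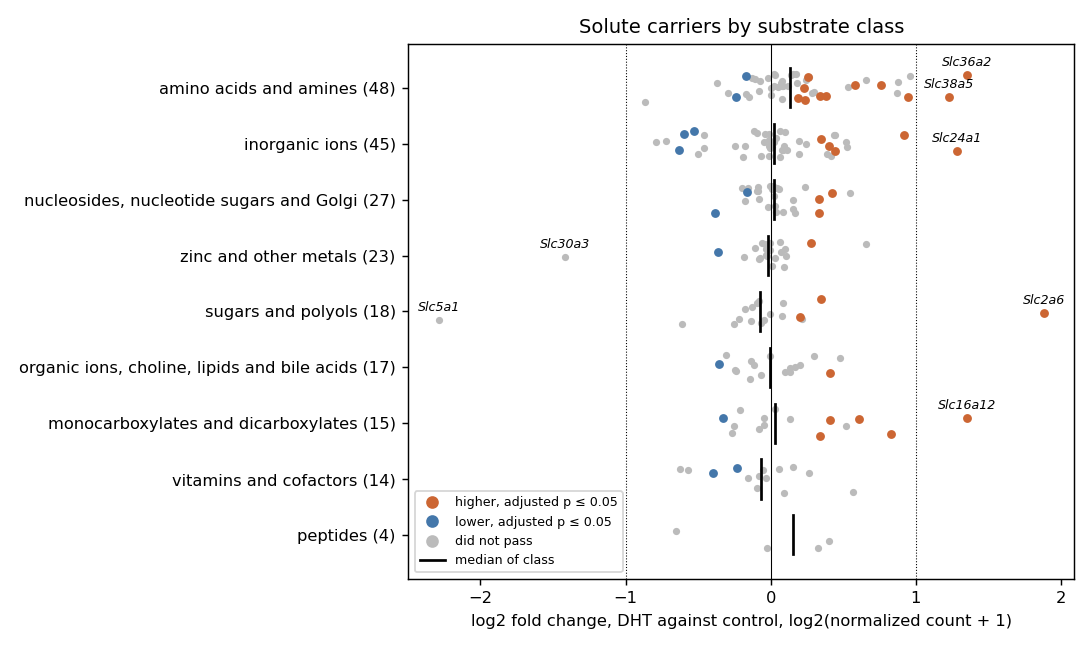
Log2 fold change of DHT against control for each of the 211 solute carriers (points), by substrate class with the number of genes in it. Orange points rose and blue points fell at an adjusted p of at most 0.05, black bars are class medians and dotted lines mark -1 and 1. The 5 labelled orange genes lie above 1, and the 2 genes below -1, *Slc5a1* and *Slc30a3*, did not pass.

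The proximal promoters of 4 of the 5 called carriers, all but *Slc36a2*, are shown here because the study concerns the androgen receptor, a transcription factor that binds DNA. Sequences are from RefSeq (GRCm38.p6), on the strand of the gene, up to 250 bases before the start site and without bases that are exonic in a protein-coding gene. Capitals mark AGAACA or its reverse complement TGTTCT, the core that androgen and other steroid receptors bind, and ACGTG or CACGT, the core of the hypoxia response element. The stretches lie at chrX:8271261-8271380 (plus strand), chr19:34747329-34747578 (minus strand), chr2:27027999-27028248 (minus strand) and chr9:64951621-64951870 (minus strand).
Slc38a5: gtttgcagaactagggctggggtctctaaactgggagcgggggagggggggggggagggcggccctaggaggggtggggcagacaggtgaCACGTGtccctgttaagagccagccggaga
Slc16a12: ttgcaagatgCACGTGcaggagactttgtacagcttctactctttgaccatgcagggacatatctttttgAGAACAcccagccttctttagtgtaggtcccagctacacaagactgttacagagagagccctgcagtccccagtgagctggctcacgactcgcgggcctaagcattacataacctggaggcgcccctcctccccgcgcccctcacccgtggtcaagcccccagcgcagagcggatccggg
Slc2a6: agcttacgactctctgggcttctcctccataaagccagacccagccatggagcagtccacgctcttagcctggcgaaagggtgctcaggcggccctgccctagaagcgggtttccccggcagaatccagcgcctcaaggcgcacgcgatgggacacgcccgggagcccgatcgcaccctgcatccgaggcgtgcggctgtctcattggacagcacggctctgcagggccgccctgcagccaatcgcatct
Slc24a1: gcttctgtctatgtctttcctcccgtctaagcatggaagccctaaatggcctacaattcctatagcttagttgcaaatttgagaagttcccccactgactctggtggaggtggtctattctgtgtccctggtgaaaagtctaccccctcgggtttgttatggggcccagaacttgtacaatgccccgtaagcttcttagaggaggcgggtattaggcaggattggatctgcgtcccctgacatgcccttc

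*Slc16a12* had AGAACA beginning 180 bases before the start and the palindrome CACGTG, which holds ACGTG on both strands, 240 bases before it. *Slc38a5* had CACGTG beginning 30 bases before the start, and neither letters were in the stretches of *Slc2a6* and *Slc24a1*. On either strand, AGAACA was in 19.0% of all 32851 promoter windows of 300 bases (250 before and 50 after the start) and in 13.02% of the 215 windows of the 163 carriers with an entry. Among the carriers that rose, 3 of 22 windows held it. ACGTG was in 19.6% of all windows, 27.9% of the windows of the carriers and 7 of the 22 windows of those that rose. The palindrome of AGAACA and TGTTCT with NNN between them was in 3 of all windows and in none of the carriers. A match of letters is not a bound site, and no match covers these windows only.

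Of the 5 called carriers, *Slc38a5* had the most reads. *Slc38a5* (ENSMUSG00000031170; chromosome X, 8271133 to 8280179, plus strand), a sodium-coupled exporter and importer of glutamine and other small neutral amino acids, had 458, 558 and 569.7 normalized counts in the control libraries and 1258, 1312 and 1141 in the DHT libraries. Every DHT library was far above every control library. The log2 fold change was 1.23 (SE 0.091, adjusted p = 0.000105 by limma with Benjamini-Hochberg adjustment). *Slc36a2* (ENSMUSG00000020264; chromosome 11, 55158470 to 55185077, minus strand), a proton-coupled importer of glycine, alanine and proline, had 96.0, 89.2 and 104 normalized counts in control and 251, 237 and 255 in DHT. Both groups were tight, and the log2 fold change was 1.36 (SE 0.11, adjusted p = 0.000151 by limma). These 2 were called under each of the 16 alternative settings tried.

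The other 3 had few reads. *Slc2a6* (ENSMUSG00000036067; chromosome 2, 27021363 to 27027998, minus strand), a hexose carrier of lysosomes, had 7.92, 25.1 and 25.0 normalized counts in control and 72.4, 56.7 and 70.7 in DHT, with control replicate 1 below the others. Its log2 fold change of 1.88 (SE 0.40, adjusted p = 0.0171 by limma) was the highest among the carriers and fell to 1.37 without control replicate 1. It did not pass without DHT replicate 1, without DHT replicate 3 or without the intensity trend (adjusted p = 0.0558, 0.0756 and 0.0860 by limma), and it was not tested at a mean of at least 50. *Slc16a12* (ENSMUSG00000009378; chromosome 19, 34668403 to 34747289, minus strand), a carrier of creatine, had 9.89, 8.36 and 14.8 in control and 37.2, 28.4 and 22.9 in DHT. Both groups were widely spread for their level, and the log2 fold change of 1.35 had an SE of 0.31 (adjusted p = 0.0241 by limma). It lost the call in 7 of 15 alternatives, among them the omission of control replicate 1 or 2 or of DHT replicate 1 or 2. *Slc24a1* (ENSMUSG00000034452; chromosome 9, 64922861 to 64951607, minus strand), a sodium/calcium-potassium exchanger known from rod photoreceptors, had 12.9, 12.1 and 13.9 normalized counts in control and 29.4, 36.0 and 33.7 in DHT. The groups were well apart, with a log2 fold change of 1.28 (SE 0.23, adjusted p = 0.00834 by limma). It passed in all 15 alternatives that tested it and lay at 0.97, under the fold threshold, with a pseudocount of 8.

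**Figure D2:**
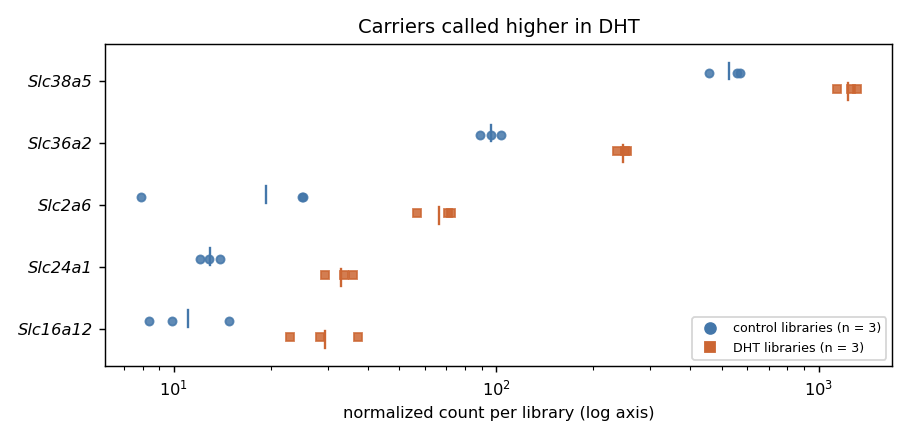
Normalized count in each library (log axis) of the 5 solute carriers called higher in DHT, with circles for control, squares for DHT and a vertical bar for each group mean. In each gene every DHT library lies to the right of every control library; the values run from 8.36 to 14.8 in control for *Slc16a12* and from 1141 to 1312 in DHT for *Slc38a5*.

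Among the carriers that passed, the lowest log2 fold change above the threshold was that of *Slc38a5* (1.23) and the highest below it that of *Slc7a8* (0.95). *Slc7a8* lay above 1, and was called, when control replicate 2, control replicate 3 or DHT replicate 2 was left out, at 1.01, 1.11 and 1.03. It lay at 0.72 without control replicate 1 and at 0.84 without DHT replicate 1, and it did not pass without the intensity trend (adjusted p = 0.0842 by limma).

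Among the 48 amino acid and amine carriers, 11 rose, 2 fell and 35 did not pass, 22.9% higher and 4.17% lower beside 6.52% and 4.66% of all genes. Their median log2 fold change was 0.13. The 11 became 5, and the 2 became 0, without the intensity trend of limma, and the 11 became 7 without DHT replicate 2 or without DHT replicate 3. The 2 became 1 with the replicate block, by DESeq2 and without control replicate 1 or any DHT replicate, and 3 without control replicate 3. The carriers that rose included the heavy chain *Slc3a2*, light chains that pair with it, cationic amino acid carriers, glutamine carriers and the taurine carrier.

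*Slc6a6*, the sodium and chloride-coupled taurine carrier, was the most abundant solute carrier (ENSMUSG00000030096; chromosome 6, 91684053 to 91759066, plus strand). Per kilobase of exon it had 9541 ± 639.8 normalized counts in control (SD, n = 3), where the median carrier had 130.2. Its normalized counts were 74786, 85409.6 and 81882 in the control libraries and 128663, 143673 and 137959 in the DHT libraries. The groups were far apart, with 1.69 times the control mean in DHT, a log2 fold change of 0.76 (SE 0.066, adjusted p = 0.000219 by limma). The fold change lay between 0.61 and 0.81 over the 16 alternatives, and each passed. Exons of *Slc6a6* overlap *Gm44981* on the other strand, which had means of 39.2 normalized counts in control and 71.2 in DHT.

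*Slc6a6* alone took 20.3%, 22.4% and 21.1% of the normalized counts of the 211 carriers in the control libraries and 28.9%, 31.3% and 30.5% in the DHT libraries. The 211 carriers together held 0.965% to 0.9997% of all counts in control and 1.14% to 1.17% in DHT. Summed over the 48 amino acid and amine carriers, normalized counts went from 171447 ± 9414 to 239202 ± 6436 (SD, n = 3), and without *Slc6a6* from 90755 ± 5506 to 102437 ± 1641. Most of the rise in the sum was that of *Slc6a6*.

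The Slc7 family held 5 carriers that rose among 8, 62.5% beside 6.52% of all genes. The 5 became 1, *Slc7a3*, without the intensity trend and 3 without DHT replicate 2. None fell by limma, edgeR or DESeq2, and none below 0 had an unadjusted p of at most 0.05. *Slc7a8*, the light chain LAT2 that exchanges neutral amino acids (ENSMUSG00000022180; chromosome 14, 54722209 to 54781946, minus strand), had 1817, 2726 and 3145 normalized counts in control and 5560.1, 4319 and 4655 in DHT. The control libraries were widely spread, with replicate 1 lowest, and still below each DHT library (log2 fold change 0.95, SE 0.18, adjusted p = 0.00964 by limma). *Slc7a3*, a cationic amino acid carrier, had 170.2, 162 and 196 in control and 271, 261 and 257 in DHT, a log2 fold change of 0.58 (SE 0.10). *Slc7a1*, the widespread importer of arginine and lysine, had 10749, 11470.2 and 13342 in control and 15733, 14901 and 14267 in DHT. Control replicate 3 came near the lowest DHT library, and the log2 fold change was 0.34 (SE 0.074, adjusted p = 0.0199 by limma). *Slc7a5*, the light chain LAT1 that imports leucine and other large neutral amino acids, went from 5262 ± 270.1 to 6201 ± 112 normalized counts (SD, n = 3). *Slc7a6*, a light chain that exchanges cationic for neutral amino acids, went from 4710.4 ± 244 to 5523 ± 224. The log2 fold changes of *Slc7a5* and *Slc7a6* were 0.24 and 0.23, small beside that of *Slc7a8*. The remaining 3, *Slc7a2*, *Slc7a4* and *Slc7a7*, had log2 fold changes of 0.084, 0.029 and 0.075 and did not pass.

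*Slc3a2*, the heavy chain that brings these light chains to the plasma membrane, had 6781, 7172 and 8522 normalized counts in control and 9906, 9418 and 9815 in DHT. Control replicate 3 was the highest control library here too, and the log2 fold change was 0.38 (SE 0.075, adjusted p = 0.0121 by limma). *Slc3a1*, the heavy chain of cystine transport, was at 18.2 normalized counts in control and did not pass.

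Of the Slc38 family of 9, *Slc38a5* and *Slc38a2* rose and *Slc38a7* fell, 22.2% higher and 11.1% lower beside 6.52% and 4.66% of all genes. *Slc38a2*, the importer of alanine and glutamine that cells raise when amino acids are short, went from 16455 ± 1014 to 18720.5 ± 672 normalized counts (SD, n = 3), a difference of 0.19 on the log2 scale whose adjusted p was 0.0493 by limma, next to the threshold. *Slc38a7*, a glutamine exporter of lysosomes, went from 1839.6 ± 61.2 to 1634 ± 56.7, a difference of -0.17 on the log2 scale whose adjusted p was 0.0461 by limma. *Slc38a2* passed in 9 and *Slc38a7* in 8 of the 16 alternatives. *Slc38a1*, which lies 44479 bp from *Slc38a2* on chromosome 15, had a log2 fold change of -0.017 and did not pass.

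*Slc1a5*, the exchanger ASCT2 of glutamine and other neutral amino acids, went from 622 ± 6.61 to 743 ± 12.0 normalized counts (SD, n = 3), a difference of 0.25 on the log2 scale (SE 0.053). *Slc6a8*, the creatine carrier, fell from 4792, 4738 and 5274 to 4101, 4229 and 4188, a log2 fold change of -0.24 (SE 0.047, adjusted p = 0.0114 by limma). *Slc16a12*, which also carries creatine, moved the other way. *Slc1a6*, the glutamate carrier EAAT4, was spread from 1804 to 2952 normalized counts among the control libraries alone and did not pass. The plot of amino acid carriers shows each library relative to the control mean.

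**Figure D3:**
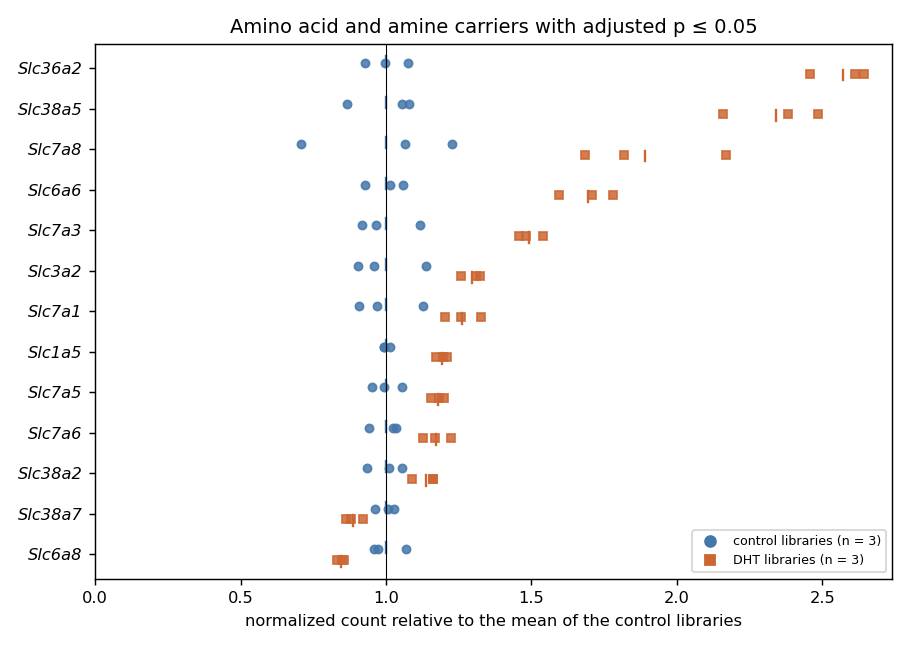
Normalized count of each library divided by the mean of the 3 control libraries, for the 13 amino acid and amine carriers with an adjusted p of at most 0.05, with circles for control, squares for DHT and vertical bars for group means. *Slc36a2*, *Slc38a5*, *Slc7a8* and *Slc6a6* stand furthest to the right, at mean ratios of 2.57, 2.34, 1.89 and 1.69, and *Slc6a8* and *Slc38a7* lie left of 1.

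Carriers of monocarboxylates and dicarboxylates numbered 15, of which 5 rose, 1 fell and 9 did not pass, 33.3% higher and 6.67% lower beside 6.52% and 4.66% of all genes. The 5 became 3, and the 1 became 0, without the intensity trend. All 6 belonged to the Slc16 family of 13. Apart from the called *Slc16a12*, the largest rises were those of *Slc16a11* and *Slc16a13*, monocarboxylate carriers linked to lipid metabolism. *Slc16a11* (ENSMUSG00000040938; chromosome 11, 70212752 to 70216417, plus strand) had 434, 528 and 508 normalized counts in control and 894, 772 and 944 in DHT, a log2 fold change of 0.83 (SE 0.097, adjusted p = 0.000918 by limma). *Slc16a13* (ENSMUSG00000044367; chromosome 11, 70216789 to 70221064, minus strand) had 993, 1206 and 1178 in control and 1789.8, 1653 and 1694 in DHT, a log2 fold change of 0.61 (SE 0.075, adjusted p = 0.00119 by limma). Both were well apart between groups and passed under all 16 alternatives. These genes are neighbours on opposite strands with their ends facing and 372 bp between them, and their annotated exons do not overlap.

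*Slc16a10*, a carrier of aromatic amino acids and thyroid hormone, went from 1003 ± 58.6 to 1272 ± 52.6 normalized counts (SD, n = 3), a difference of 0.34 on the log2 scale (SE 0.058). *Slc16a6*, a carrier of ketone bodies, went from 406 ± 38.5 to 323 ± 18.2, with an adjusted p of 0.0497 by limma. *Slc16a6* passed in 5 of 16 alternatives, the fewest among the 41, and its exons overlap *Amz2* and *Arsg* on the other strand. The lactate and pyruvate carriers *Slc16a1* (MCT1) and *Slc16a3* (MCT4) did not pass by limma. Their log2 fold changes were -0.046 (SE 0.040) and 0.52 (SE 0.16, adjusted p = 0.0742 by limma). By DESeq2 *Slc16a3* passed and was higher in DHT, and by edgeR neither passed.

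Inorganic ion carriers numbered 45, of which 5 rose, 3 fell and 37 did not pass, 11.1% higher and 6.67% lower beside 6.52% and 4.66% of all genes. The 5 became 2 without the intensity trend and 3 without control replicate 2 or without DHT replicate 2, and the 3 became 1 without the trend, without DHT replicate 2 or without DHT replicate 3. *Slc4a4*, the sodium bicarbonate cotransporter NBCe1 (ENSMUSG00000060961; chromosome 5, 88886818 to 89239653, plus strand), had 329, 568 and 518 normalized counts in control and 804, 944 and 869.5 in DHT. Control replicate 1 was low and the groups did not overlap (log2 fold change 0.92, SE 0.18, adjusted p = 0.0106 by limma). It was called at 1.07 without control replicate 2 and at 1.01 without control replicate 3. *Slc20a1*, a phosphate importer, had 1697, 1814 and 2240.0 in control and 2662, 2591 and 2502 in DHT, a log2 fold change of 0.44 (SE 0.090). Its exons overlap *9830144P21Rik* on the other strand, which went from 103 to 174 normalized counts and did not pass, and *Gm4430*. *Slc8b1*, the sodium/calcium exchanger of mitochondria, went from 387 ± 24.6 to 493 ± 36.7 (log2 fold change 0.35).

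The Slc26 anion exchangers went both ways, with 1 of 8 higher and 2 lower, 12.5% and 25.0% beside 6.52% and 4.66% of all genes. *Slc26a2*, the sulfate carrier needed for cartilage proteoglycans, had 1165, 1208 and 1215 normalized counts in control and 1615, 1553 and 1576 in DHT, with little spread in either group (log2 fold change 0.40, SE 0.044, adjusted p = 0.000592 by limma). *Slc26a11*, which also carries sulfate, had 404, 388 and 454 in control and 285, 256 and 261 in DHT, a log2 fold change of -0.63 (SE 0.089, adjusted p = 0.00243 by limma), the largest fall among the carriers that passed. *Slc26a7*, a chloride and bicarbonate carrier, had 983, 873 and 1005 in control and 793, 661 and 551 in DHT, spread in DHT, with a log2 fold change of -0.53 (SE 0.12). It did not pass without the trend or without control replicate 1, DHT replicate 2 or DHT replicate 3. *Slc41a3*, a magnesium carrier, had 676, 470.2 and 439 in control and 328, 367 and 336 in DHT. Control replicate 1 stood above the rest, and the log2 fold change was -0.59 (SE 0.15, adjusted p = 0.0323 by limma). *Slc41a3* did not pass in 6 of 16 alternatives, which were no trend, the replicate block (adjusted p = 0.0666 by limma) and the omission of control replicate 2 or of any DHT replicate.

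None of the 9 sodium/proton exchangers (Slc9) and none of the 7 members of the cation-chloride cotransporter family (Slc12) passed by limma. Over all genes 11.2% passed. An unadjusted limma p of at most 0.05 was found in 2 and 1 of them, and in 4101 of all 16292 genes. By edgeR none of either family passed, and by DESeq2 1 did, *Slc12a8*. The log2 fold changes ran from -0.25 to 0.25 and from -0.04 to 0.52. *Slc9a7*, an exchanger of the Golgi and second to *Slc6a6* per kilobase with 3269 ± 118 normalized counts in control, had a log2 fold change of -0.066 (SE 0.056). *Slc12a7*, the potassium-chloride cotransporter KCC4, had 0.062 (SE 0.051).

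Sugar and polyol carriers numbered 18, of which 3 rose, none fell by limma, edgeR or DESeq2 and 15 did not pass, 16.7% higher beside 6.52% of all genes. Of those below 0, 3 had an unadjusted limma p of at most 0.05. The 3 that rose became 2 without DHT replicate 1 and 1 without the intensity trend or without DHT replicate 3. Beside *Slc2a6*, *Slc5a3*, the sodium-coupled importer of myo-inositol, went from 1589, 1305 and 1511 to 1884, 1840.3 and 1858 normalized counts, a log2 fold change of 0.35 (SE 0.069, adjusted p = 0.0128 by limma). Its exons overlap *Mrps6* on the same strand, which rose by 0.21 on that scale, so the counts of both genes are uncertain there. *Slc45a4* went from 3795 ± 31.7 to 4368 ± 40.5 (log2 fold change 0.20), small and with little spread. The median of the class was -0.07.

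*Slc5a1*, the sodium-glucose carrier SGLT1, and *Slc30a3*, a zinc carrier, were outside the rule for named genes and were picked after their values were seen, because they alone lay below -1. *Slc5a1* had 38.6, 62.3 and 66.7 normalized counts in control and 41.1, 5.45 and 4.35 in DHT. DHT replicate 1 lay within the control range and the other DHT libraries far below it, so that the log2 fold change of -2.29 had an SE of 0.69 and an adjusted p of 0.0668 by limma. Without DHT replicate 1 the log2 fold change was -3.24 with an adjusted p of 0.0012. *Slc30a3* had 32.7, 13.01 and 7.41 in control and 11.7, 0 and 15.2 in DHT. These groups overlapped, and the log2 fold change of -1.42 had an SE of 0.99.

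Zinc and other metal carriers numbered 23, of which 1 rose, 1 fell and 21 did not pass. With 4.35% higher and 4.35% lower, these shares lay below those of all genes (6.52% and 4.66%). *Slc30a1*, the exporter of zinc from the cell, had 612, 596 and 564 normalized counts in control and 479, 470.2 and 431 in DHT, a log2 fold change of -0.36 (SE 0.070, adjusted p = 0.0113 by limma). It did not pass without DHT replicate 3. *Slc31a1*, the copper importer CTR1, had 2988, 3019 and 2989 in control and 3602, 3568 and 3716 in DHT, a log2 fold change of 0.27 (SE 0.035, adjusted p = 0.00149 by limma). None of the 11 zinc importers of the Slc39 family passed by limma, edgeR or DESeq2, with 1 at an unadjusted limma p of at most 0.05, the abundant *Slc39a1* and *Slc39a6* among them at -0.11 and -0.058. The summed normalized counts of the class were 44129 ± 655 in control and 44595 ± 360.0 in DHT (SD, n = 3).

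*Slc30a1* is a textbook target of the metal-sensing factor MTF1, and its promoter is shown for that reason. The stretch, from RefSeq (GRCm38.p6), lies at chr1:191906531-191906766 on the plus strand, with capitals for the metal response element, TGCACNC or TGCGCNC on either strand.
Slc30a1: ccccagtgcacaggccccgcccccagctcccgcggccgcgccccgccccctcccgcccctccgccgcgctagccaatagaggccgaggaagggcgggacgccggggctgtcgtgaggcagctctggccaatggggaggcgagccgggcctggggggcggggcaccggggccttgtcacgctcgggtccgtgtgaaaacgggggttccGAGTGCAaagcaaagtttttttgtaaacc

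The match began 43 bases before the start site, and another, in the window but outside the printed stretch, 30 bases after it. These letters were in 25.7% of all promoter windows and 35.8% of those of the carriers. The genes of zinc buffering *Mt1* and *Mt2*, and *Mtf1* itself, did not pass, with log2 fold changes of -0.027, 0.25 and -0.019. Whether MTF1 acted on the carrier was not tested.

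Carriers of nucleosides, nucleotide sugars and the Golgi numbered 27, of which 3 rose, 2 fell and 22 did not pass, 11.1% higher and 7.41% lower beside 6.52% and 4.66% of all genes. The 5 were all of the Slc35 family of 23, and in the less studied branches E and F. *Slc35e2* went from 4129 ± 439 to 5517 ± 230.3 normalized counts (SD, n = 3), *Slc35e4* from 1248 ± 108 to 1574 ± 122 and *Slc35f6* from 1889 ± 35.1 to 2380.1 ± 99.1. Their log2 fold changes were 0.42, 0.33 and 0.33. *Slc35f2* and *Slc35f5* fell, with -0.38 and -0.16. Of the 3 that rose, *Slc35f6* passed in all 16 alternatives, *Slc35e2* did not pass without the intensity trend, and *Slc35e4* did not without the trend, control replicate 1, DHT replicate 2 or DHT replicate 3. Neither of the 2 that fell passed without the intensity trend, with the replicate block or without control replicate 1, control replicate 2 or DHT replicate 2. The carriers of defined nucleotide sugars in branches A to D did not pass.

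Vitamin and cofactor carriers numbered 14, of which none rose by limma, edgeR or DESeq2 (1 at an unadjusted limma p of at most 0.05), 2 fell and 12 did not pass, 0% higher and 14.3% lower beside 6.52% and 4.66% of all genes. Without the intensity trend, DHT replicate 2 or DHT replicate 3, 1 of these 2 passed. When control replicate 1 was left out, *Slc46a3* passed and was higher in DHT. *Slc48a1*, the heme carrier HRG1 of endosomes and lysosomes, had 2837, 2644 and 2559.6 normalized counts in control and 1988, 2075 and 2039 in DHT. The groups were well apart, with a log2 fold change of -0.40 (SE 0.047, adjusted p = 0.00102 by limma), and it passed in all 16 alternatives. Its exons overlap *Hdac7* on the other strand, which moved by 0.12 on the log2 scale and did not pass. *Slc19a2*, a thiamine importer, had 2143, 2061 and 2224 in control and 1892, 1776 and 1796 in DHT, a log2 fold change of -0.23 (SE 0.046). The sum of the class went from 15504 ± 239 to 14414 ± 129 normalized counts (SD, n = 3).

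Of the 17 carriers of organic ions, choline, lipids and bile acids, 1 rose and 1 fell, 5.88% each way and near the 6.52% and 4.66% of all genes, and neither passed without the intensity trend, with the replicate block or without control replicate 2 or DHT replicate 2. *Slc22a15*, of the organic ion family, went from 383 ± 39.4 to 509 ± 31.5 normalized counts (SD, n = 3; log2 fold change 0.41), and *Slc44a3*, of the choline carrier-like family, from 517 ± 42.6 to 404 ± 31.2 (log2 fold change -0.35). The exons of *Slc44a3* overlap *A530020G20Rik* on the other strand, which had means of 883 and 814 normalized counts and did not pass. None of the 4 peptide carriers (Slc15) passed by limma, edgeR or DESeq2 or had an unadjusted p of at most 0.05. The plot of carriers of other substrates gives every library of 27 of the 28 that passed outside the amino acid class.

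**Figure D4:**
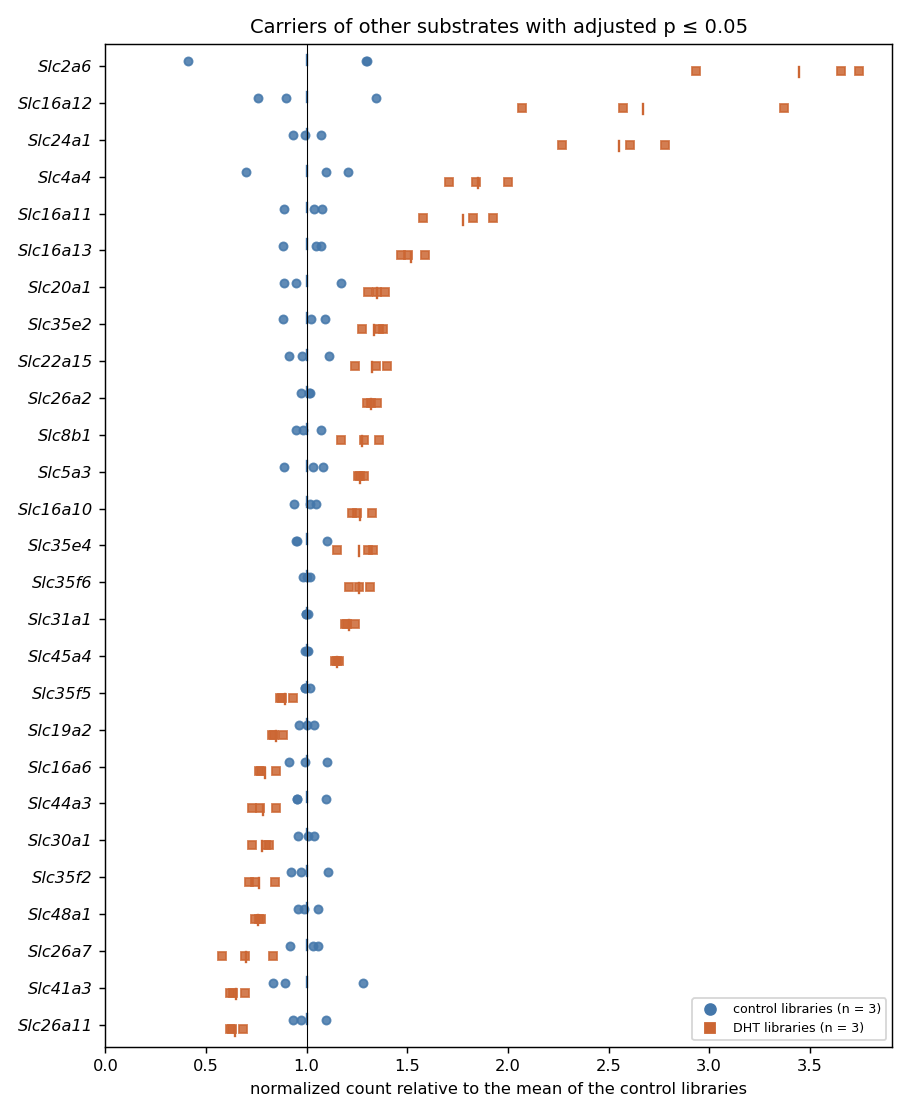
Normalized count of each library divided by the mean of the 3 control libraries, for 27 carriers of other substrates with an adjusted p of at most 0.05, with circles for control, squares for DHT and vertical bars for group means. The 17 genes at the top rose, from *Slc2a6* at a mean ratio of 3.45 to *Slc45a4* at 1.15, and the 10 at the bottom fell, to 0.644 in *Slc26a11*.

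Per kilobase of exon, the level of a carrier in control ranged from 0.797 to 9541 normalized counts. After *Slc6a6* and *Slc9a7* came *Slc3a2* (2123 ± 259; SD, n = 3), *Slc38a2* (1862 ± 115), *Slc39a1* (1615 ± 25.7), *Slc39a6* (1432 ± 102), *Slc7a5* (1419 ± 72.8), *Slc12a7* (1236 ± 83.6), *Slc38a10* (1179 ± 10.5) and *Slc1a6* (1126 ± 269). The first 3 did not overlap with each other in the control libraries, while many neighbours further down did, such as *Slc3a2* with *Slc38a2* and *Slc39a6* with *Slc7a5*. Of these 10, *Slc6a6*, *Slc3a2*, *Slc38a2* and *Slc7a5* rose and the other 6 did not pass, where 6.52% of all genes rose. Without the intensity trend *Slc3a2*, *Slc38a2* and *Slc7a5* did not pass.

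**Figure D5:**
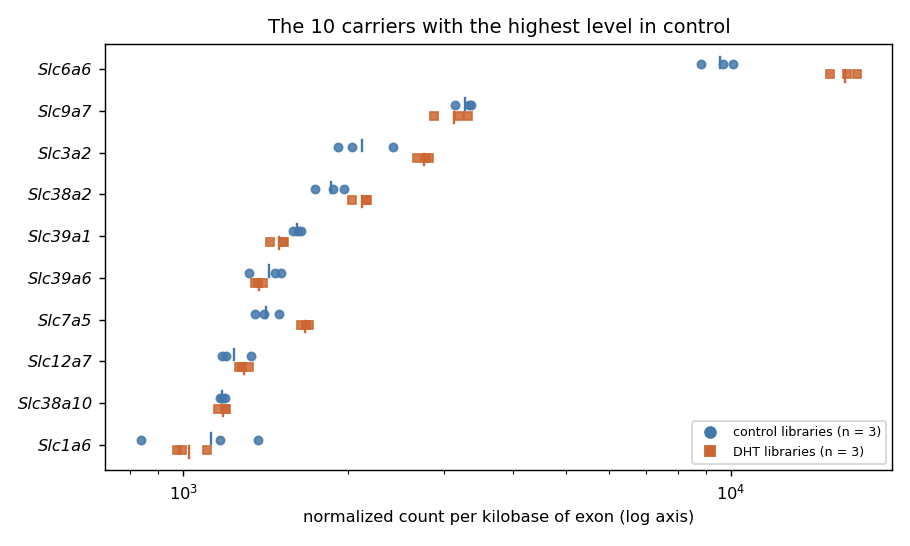
Normalized count per kilobase of exon in each library (log axis) for the 10 solute carriers with the highest control mean, with circles for control, squares for DHT and vertical bars for group means. *Slc6a6* lies far to the right at 9541 in control, and its DHT libraries are higher again.

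Carriers that lie next to each other did not always move together. Within 50000 bp there were 8 neighbouring pairs. In the Slc36 cluster on chromosome 11, *Slc36a2* rose, while *Slc36a3*, 6762 bp away on the same strand and at 7.26 normalized counts in control, had a log2 fold change of 0.96 (SE 0.43) and *Slc36a1*, 19273 bp away, 0.071 (SE 0.057); neither of these passed.

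Among 24 genes that serve the carriers without being SLC genes, 4 rose, 1 fell and 19 did not pass, 16.7% higher and 4.17% lower beside 6.52% and 4.66% of all genes. *Atp1b1*, a beta subunit of the sodium pump, which builds the gradient that many carriers use, fell by limma, from 2725 ± 164 to 2118 ± 102 normalized counts (SD, n = 3). Of 5 genes of the amino acid response, a program that raises several amino acid carriers, *Atf4*, *Asns* and *Chac1* rose, with log2 fold changes of 0.30, 0.29 and 0.67, and *Trib3* and *Ddit3*, at 0.43 and 0.29, did not pass. The ATF4 site TGATGNAA was in 3.97% of all promoter windows, 3.26% of those of the carriers and in 0 of the 22 windows of carriers that rose. These windows cover 18 of the 29 that rose. At a share of 3.97% they are too few for 0 to be read as a lack. *Ckb*, a creatine kinase, rose by 0.20 on the log2 scale, and the genes of creatine synthesis *Gatm* and *Gamt* did not pass. *Bsg* and *Emb*, which bring monocarboxylate carriers to the membrane, had log2 fold changes of -0.12 and -0.11 and did not pass either.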

How the data were processed

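Per gene and library, the authors deposited a signal that is a read count over a DESeq2 size factor. Per the submitters' processing notes and the methods of the study, reads were trimmed with Trimmomatic 0.36, mapped to GRCm38 with STAR 2.5.2b, and unique reads in exons were counted with featureCounts of Subread 1.5.2. The library kit does not mark strand, so reads of genes that overlap on opposite strands cannot be told apart. The log2 fold changes, p-values and adjusted p-values that the authors deposited, and a second deposited table of 190 genes with the same values, were not used. Dividing the values of a library by their common step gave whole reads for 100% of values (tolerance 0.001).

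Log2(value + 1) was fitted in R 4.3.3 by limma 3.58.1, which used an intensity trend and no block, on 16292 genes whose mean reached 10. Groups came from the treatment characteristic. Labels number the replicates alike in both groups, but nothing in the sources used here ties a number to a shared pool. With 3 libraries against 3, an exact two-sided permutation test cannot go below 0.1, so none was run. Alternatives were pseudocounts of 0.5 and 8, no filter, a mean of at least 50, TMM and quantile scaling, no trend, the replicate block, edgeR 4.0.16 and DESeq2 1.42.0 on recovered reads, and each library left out. The scripts were checked on simulated counts.

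Members, substrate classes (by family number) and gene lists were chosen with earlier results of these data known. Genes were described if called, if among the 3 largest rises or 3 largest falls of a class among those passing, if among the 10 highest per kilobase of exon in control, or if nearest the fold threshold. This gave 39 genes, 33 of them passing. Of the 8 other passing members, *Slc1a5*, *Slc7a1*, *Slc7a3*, *Slc7a6*, *Slc8b1*, *Slc16a10* and *Slc26a2*, like members named as not passing, were named after their values were seen. The remaining 1, and 2 genes of the list of genes that serve the carriers, are not reported here. Exon lengths, positions and overlaps came from GENCODE M21 on GRCm38, and promoters from RefSeq, which had an entry for 163 members, 25 of them among the 41 that passed.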

Additional observations from a re-analysis of the deposited data

How the results depend on the processing

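The 5 carriers called higher became 3 with a pseudocount of 8, 2 when a mean of at least 50 normalized counts was asked for (162 carriers tested), 3 without the intensity trend and between 3 and 7 with a library left out, and 0 to 1 were then called lower. The 29 that rose became 13 without the trend and between 19 and 32 with a library left out, and the 12 that fell became 3 and between 4 and 13. Because a library left out leaves 2 in its group, its fits have less power by construction. With the replicate block, 4 were called higher, 23 rose and 6 fell, and 29 of the 41 were shared. The numbers were not shown to pair the libraries: deviations of same-numbered libraries correlated at 0.0058, 0.067 and -0.24, against a mean of 0.028 for different numbers. Of 621 values of the named carriers under alternatives, 527 kept direction and their side of the adjusted p of 0.05, whatever their side of the fold threshold, 89 kept direction and no longer passed, 5 moved around 0 (*Slc1a6*, *Slc38a10*) and none of those called changed sign. edgeR gave 5 called, 29 that rose and 12 that fell, and DESeq2 5, 32 and 12, with no adjusted p for 22 carriers. Of the 41, 14 passed in every alternative that tested them. Depth limits the 48 carriers with a control mean under 50 normalized counts, which included *Slc2a6*, *Slc16a12* and *Slc24a1*.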
